A study of Homo sapiens with 4 samples.

Results

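The MAGE, GAGE, XAGE, PAGE, SSX and CTAG genes were followed across 4 established human germ cell tumour cell lines. Every gene in the array annotation whose symbol begins with MAGEA, MAGEB, MAGEC, MAGED, MAGEE, MAGEF, MAGEH, GAGE, XAGE, PAGE, SSX or CTAG was taken, which gave 69 of 21357 annotated symbols. Of these, 7 enter by their first letters alone, namely 6 CTAGE genes and SSX2IP, a centrosomal partner of SSX2. The X chromosome carries 59 of the 69 in the current RefSeq gene table. Many are near-identical copies of each other, and 33 members lie only on probe sets listed with several genes. The other 36 have a probe set listed with their symbol alone, out of 19775 genes in all for which this holds.

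Most of these genes are cancer-testis genes: they are read in germ cells of the testis, are silent in most other adult tissues and return in many tumours, where their peptides are recognised by T cells. Their silence in somatic cells is tied to methylation of CpG pairs in their promoters. MAGE proteins share a domain that binds RING-type ubiquitin ligases, SSX proteins are nuclear repressors known as fusion partners in synovial sarcoma, and GAGE, PAGE and XAGE proteins are small, acidic and related to each other. The MAGED, MAGEE, MAGEF and MAGEH genes carry the same MAGE domain but are expressed widely, outside the testis too.

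TCam-2 is labelled as seminoma, NT2D1 as a teratoma from a lung metastasis, GCT27 as embryonal carcinoma and GCT44 as yolk sac tumour, and each line was hybridized once to a single-colour array of 54675 probe sets. All cultures had 10% fetal bovine serum with antibiotics, in RPMI medium for TCam-2 and in DMEM for the others, and for TCam-2 the medium and the subtype cannot be told apart. The study set out to find genes silenced in the non-seminoma lines, and its methylation arrays are not analysed here. NT2D1 is known as a pluripotent line of embryonal carcinoma type, and each subtype is represented by 1 line with 1 array, so no difference has a replicate error or a p-value. Precision is limited by the number of arrays.

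The deposited intensity is a linear brightness value that was scaled alike on each array. Levels under 76.4 units, the median of all values, are not ordered and are called below the floor. For a fold difference such a value was set to the floor, and the fold is then written "at least". The size rule calls a gene higher (or lower) in 1 line if its level is 4-fold or more above (or below) that of the nearest of the other 3. Levels are compared only between lines within 1 probe set, since probe sets differ in brightness for the same amount of RNA.

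Some subtype markers followed the labels of the lines and others did not. SOX17, a germ line factor of seminoma, measured 3819 in TCam-2 and was below the floor elsewhere. SOX2, a pluripotency factor, measured 20575 in NT2D1 and 18309 in GCT27 against 391 in TCam-2 and 6.41 in GCT44. APOA2, an apolipoprotein of yolk sac endoderm, measured 30689 in GCT44 and at most 89.2 in the others, while KIT, a seminoma marker, lay between 1144 and 1771 in all 4 lines. PRDM1, also a seminoma marker, measured 2481 in TCam-2 and 1550 in GCT44. The pluripotency factor NANOG measured 22390 in TCam-2, 13322 in NT2D1 and 22428 in GCT27, and was below the floor in GCT44 at 2.29. The yolk sac markers AFP and GATA4 reached only 372 and 104 in GCT44. Of 11 markers compared, 2 were called higher in TCam-2 (background 1.49%), 2 in GCT44 (1.70%) and none in NT2D1 (0.523%) or GCT27 (0.603%). Beside SOX17 and APOA2, these were TFAP2C (20557 in TCam-2, at most 2442 elsewhere) and FOXA2 (6631 in GCT44, at most 259 elsewhere). TFAP2C, SOX2 and NANOG were called lower in GCT44 (background 1.69%), and no marker was called lower in another line. The SOX2 call was lost with a floor of 252 units (margin 0.63 on the log2 scale) and with the median over its probe sets. Of 13 spermatogonia and spermatocyte markers with a probe set, DDX4, SYCP1, TEX11, SOHLH1, SOHLH2, NANOS2 and NANOS3 were below the floor on all arrays, and 2, 5, 5 and 1 markers were above it in TCam-2, NT2D1, GCT27 and GCT44. Their summed level, most of it FGFR3, was 7527, 4642, 3579 and 4098 in the same order. Of 11 Sertoli, Leydig, stromal, endothelial and leukocyte markers, 4 to 6 were above the floor in each line, with a summed level between 971 and 2141 and with PTPRC and CYP17A1 below the floor throughout. Both sums add probe sets of unlike brightness, some of them below the floor, and are not a measure of cell content.

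The promoters of 8 members are shown to let the CpG content of the families be read. Each window holds the 250 bases before a RefSeq start site in GRCh38.p14, read 5′ to 3′ on the gene's strand, with every CpG pair in capitals. MAGEA6 (chrX:152769690-152769939, minus strand) and MAGEA12 (chrX:152733612-152733861, plus) were called higher in GCT44 and XAGE2 (chrX:52368771-52369020, plus) in TCam-2. XAGE1B (chrX:52517013-52517262, minus), GAGE2A (chrX:49589246-49589495, plus) and PAGE5 (chrX:55220096-55220345, plus) represent families with probe sets above the floor in GCT44. XAGE1B and GAGE2A have no probe set of their own, and the XAGE1 set was high in TCam-2 too. PAGE4 (chrX:49829053-49829302, plus) was brightest in TCam-2, and MAGED1 (chrX:51893373-51893622, plus) was bright in all lines.
MAGEA6: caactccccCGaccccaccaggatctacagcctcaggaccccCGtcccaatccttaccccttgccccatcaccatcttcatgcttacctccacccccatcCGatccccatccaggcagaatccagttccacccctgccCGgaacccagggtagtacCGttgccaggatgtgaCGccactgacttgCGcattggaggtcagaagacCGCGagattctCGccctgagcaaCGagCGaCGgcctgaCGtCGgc
MAGEA12: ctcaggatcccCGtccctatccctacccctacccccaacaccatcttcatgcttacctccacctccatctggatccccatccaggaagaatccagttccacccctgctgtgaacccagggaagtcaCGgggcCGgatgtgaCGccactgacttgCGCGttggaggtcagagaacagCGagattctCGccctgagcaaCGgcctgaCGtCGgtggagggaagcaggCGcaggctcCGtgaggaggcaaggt
XAGE2: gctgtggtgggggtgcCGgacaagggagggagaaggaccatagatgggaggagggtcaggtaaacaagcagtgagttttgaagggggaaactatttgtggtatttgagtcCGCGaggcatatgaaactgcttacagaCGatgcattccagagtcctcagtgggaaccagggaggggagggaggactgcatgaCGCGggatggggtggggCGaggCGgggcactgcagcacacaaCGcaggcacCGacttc
XAGE1B: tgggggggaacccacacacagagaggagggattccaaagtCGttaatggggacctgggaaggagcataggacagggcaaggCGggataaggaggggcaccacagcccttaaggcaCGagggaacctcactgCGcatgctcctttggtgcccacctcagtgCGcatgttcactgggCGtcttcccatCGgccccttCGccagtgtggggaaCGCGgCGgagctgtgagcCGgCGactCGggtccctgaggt
GAGE2A: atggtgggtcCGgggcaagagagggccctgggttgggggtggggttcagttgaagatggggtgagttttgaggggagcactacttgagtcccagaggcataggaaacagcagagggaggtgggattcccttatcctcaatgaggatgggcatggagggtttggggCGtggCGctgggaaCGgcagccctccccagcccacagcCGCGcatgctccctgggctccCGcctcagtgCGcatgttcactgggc
PAGE5: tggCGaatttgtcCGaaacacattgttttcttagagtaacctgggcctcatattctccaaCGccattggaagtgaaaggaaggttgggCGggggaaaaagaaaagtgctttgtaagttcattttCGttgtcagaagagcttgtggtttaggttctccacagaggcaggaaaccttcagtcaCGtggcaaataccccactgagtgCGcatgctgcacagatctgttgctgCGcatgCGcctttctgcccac
PAGE4: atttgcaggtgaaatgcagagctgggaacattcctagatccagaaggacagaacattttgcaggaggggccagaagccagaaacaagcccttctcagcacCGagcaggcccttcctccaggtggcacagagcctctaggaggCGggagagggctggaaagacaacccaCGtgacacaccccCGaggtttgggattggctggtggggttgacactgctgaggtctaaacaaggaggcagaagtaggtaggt
MAGED1: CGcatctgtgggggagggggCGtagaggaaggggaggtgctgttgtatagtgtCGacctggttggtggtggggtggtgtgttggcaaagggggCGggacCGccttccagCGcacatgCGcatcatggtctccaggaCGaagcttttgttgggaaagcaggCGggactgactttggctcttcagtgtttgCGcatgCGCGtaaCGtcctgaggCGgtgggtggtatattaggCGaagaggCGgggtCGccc

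The window of MAGEA3 was identical to that of MAGEA6 over all 250 bases, and MAGEA12 shared 189 of 211 aligned bases (89.6%) with MAGEA6. The CpG pairs numbered 15 in MAGEA6, 13 in MAGEA12, 10 in XAGE2, 14 in XAGE1B, 8 in GAGE2A, 9 in PAGE5, 4 in PAGE4 and 17 in MAGED1. Where a gene had several start sites, the most downstream one is shown.

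Across the 36 members with a probe set of their own, 20 reached the floor in at least 1 line and 16 were below it in all. The number above the floor was 12 in TCam-2 and 8 in NT2D1, 12 in GCT27 and 16 in GCT44, or 33.3%, 22.2%, 33.3% and 44.4%, where the same share of all 19775 genes was 62.3%, 63.3%, 64.6% and 60.8%. Only 7 of the 36 were above the floor in all 4 lines, against 9894 of all 19775 genes. Of the 36, GCT44 was the highest line for 12, TCam-2 for 4, NT2D1 for 3 and GCT27 for 1, and the other 16 have no order. Among all 19775 genes GCT44 was the highest line for 4009.

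GCT44 was the line in which these genes stood out. MAGEA1, MAGEA6, MAGEA12, CTAG2, PAGE1 and PAGE5 were called higher there, which is 6 of the 36 members with a probe set of their own. The same rule called 253 of 14926 genes that reached the floor in some line, or 1.70%, and 1.28% of all 19775 genes. MAGEA1, CTAG2, PAGE1 and PAGE5 reached the floor in GCT44 alone, so they could be counted only as higher. No member was called lower in GCT44 (1.69% of all genes compared). In TCam-2 XAGE2 was called higher (background 1.49%) and no member lower (0.744%). No member was called in NT2D1 (0.523% higher and 0.241% lower in the background) or GCT27 (0.603% and 0.322%). The median difference of a line from the mean over the other 3 was 0.0 on the log2 scale for the 36 members in each line, as for all genes, because members below the floor throughout count as 0. The mean difference was 0.99 in GCT44, -0.26 in TCam-2, -0.46 in NT2D1 and -0.28 in GCT27, against values within 0.03 of 0 for all genes.

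**Figure D1:**
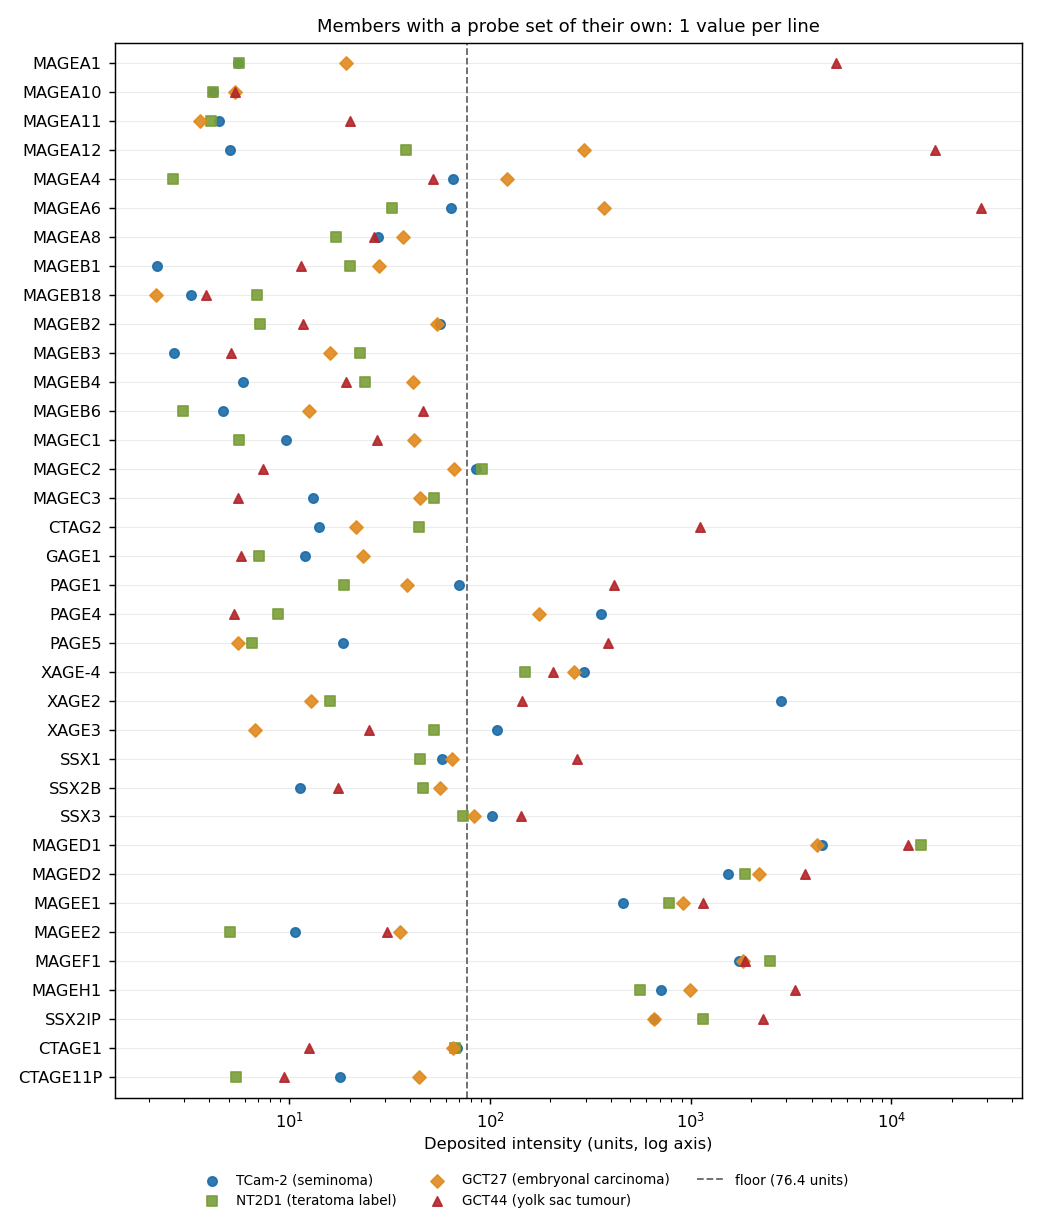
Deposited intensity of the 36 members with a probe set of their own, 1 point per line and member on a log axis, ordered by subfamily; the dashed line is the floor of 76.4 units. MAGEA1, MAGEA6, MAGEA12 and CTAG2 in GCT44 (triangles) and XAGE2 in TCam-2 (circle) lie far to the right of the other lines, the MAGED points lie above the floor in all lines, and all MAGEB points lie below it.

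The yolk sac tumour array stood apart in some controls. Its ratio of 3′ to 5′ signal was 4.21 for ACTB against 2.49 to 2.97 on the other arrays, and 1.04 for GAPDH against 0.898 to 1.09. Its spiked-in controls lay 0.30 above the mean of the arrays on the log2 scale, and those of GCT27 0.25 below. Scaling all arrays to those controls moved the median difference of all genes to -0.31 in GCT44 and 0.28 in GCT27. It changed the split of all genes from 253 higher and 252 lower to 181 and 306 in GCT44, and from 90 and 48 to 148 and 38 in GCT27. The 6 members stayed called in GCT44 under that scaling. Without that scaling, GCT44 had both the highest ACTB ratio (4.21) and the most genes called higher (253). The array with the lowest ratio, TCam-2 (2.49), had 222 such genes. NT2D1, with a ratio of 2.83, had 78, while GCT27, with 2.97, had 90. Each line has 1 array, so the ratio cannot be told apart from the line. The part of RNA quality in the differences between the lines was not tested.

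MAGEA genes encode the classical melanoma antigens, which bind RING ligases such as TRIM28 through the MAGE domain. Of 7 MAGEA genes with a probe set of their own, 3 were above the floor in GCT44, 3 in GCT27 and none in TCam-2 or NT2D1. MAGEA1, the founding antigen of the family, measured 5.55 in TCam-2 and 5.6 in NT2D1, 19.2 in GCT27 and 5310 in GCT44. It was below the floor in the first 3 lines and at least 69.5-fold higher in GCT44.

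MAGEA6 measured 64.2 in TCam-2 and 32.5 in NT2D1, 368 in GCT27 and 28020 in GCT44. GCT27 was the only other line above the floor, and GCT44 lay 76.1-fold over it and at least 367-fold over the lowest line. MAGEA12 had the same order, with 5.06 in TCam-2 and 38.0 in NT2D1, 293 in GCT27 and 16409 in GCT44. Its GCT44 level was 55.9-fold that of GCT27 and at least 215-fold that of the lowest line.

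MAGEA4, an antigen targeted in T cell therapy, followed another pattern with 65.6, 2.62, 122 and 51.8 in TCam-2, NT2D1, GCT27 and GCT44. It was above the floor in GCT27 alone, by at least 1.6-fold, and was not called. MAGEA8, MAGEA10 and MAGEA11 were below the floor in all lines. MAGEA10 measured 4.15 in TCam-2 and NT2D1, 5.39 in GCT27 and 5.34 in GCT44, so not every MAGEA gene with its own probe set was high in GCT44.

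The probe sets listed with several MAGEA genes add the members that cannot be read singly. The set listed with MAGEA3 and MAGEA6 measured 11.4 in TCam-2 and 11.6 in NT2D1, 208 in GCT27 and 28321 in GCT44, which was 136-fold over GCT27. MAGEA3 and MAGEA6 have the same promoter window, and this set cannot separate them. Of 2 sets listed with MAGEA2 and MAGEA2B, the first measured 24.3, 33.5, 2700 and 8415 in TCam-2, NT2D1, GCT27 and GCT44 and the other 3.51, 1.07, 1036 and 3725. In both, GCT44 was 3.12-fold and 3.6-fold over GCT27, short of the call, and GCT27 was at least 35.3-fold and 13.6-fold over the remaining lines. Both lines were thus well above the floor on the MAGEA2 sets, and TCam-2 and NT2D1 were below it.

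One of 2 sets of the pseudogene MAGEA5P, listed with LOC100533997, measured 143, 47.1, 196 and 3808 in the same order and was 19.4-fold higher in GCT44. The other was below the floor in all lines, as was the set of MAGEA9 and MAGEA9B.

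All 6 MAGEB genes, MAGEB1, MAGEB2, MAGEB3, MAGEB4, MAGEB6 and MAGEB18, were below the floor in all 4 lines. Of the MAGEC genes, MAGEC1 and MAGEC3 were below it too. MAGEC2, also known as CT10, measured 85.5 in TCam-2 and 91.4 in NT2D1, 66.4 in GCT27 and 7.38 in GCT44 on one probe set, just above the floor in 2 lines, and its other probe set was below the floor throughout.

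CTAG1A and CTAG1B encode the antigen NY-ESO-1, one of the most immunogenic cancer-testis antigens, and CTAG2 encodes its relative LAGE-1. CTAG2 measured 14.1 in TCam-2 and 44.3 in NT2D1, 21.6 in GCT27 and 1109 in GCT44 on the probe set with the higher mean log2 value. Its other probe set measured 6.35, 10.9, 11.5 and 11182 in the same order. Both were above the floor in GCT44 alone, by at least 14.5-fold and 146-fold.

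The 3 probe sets shared by CTAG1A and CTAG1B were above the floor in GCT44 alone as well. They measured 8.96, 3.09 and 17.2 in TCam-2, 12.1, 12.4 and 3.02 in NT2D1, and 21.4, 12.2 and 10.2 in GCT27. In GCT44 they measured 9441, 11587 and 4774, at least 124-fold, 152-fold and 62.5-fold above every other line. No line but GCT44 had a CTAG probe set above the floor.

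GAGE genes lie as a tandem array of near-identical copies on the X chromosome, and 4 probe sets are listed with 12, 10, 13 and 5 of them. In TCam-2 the 4 sets measured 165, 140, 163 and 111. In NT2D1 they measured 1647, 1567, 1684 and 1868. In GCT27 they measured 7.49, 3.42, 79.4 and 4.47, and in GCT44 11330, 11368, 12176 and 10751. GCT27 was below the floor on 3 sets and just above it on 1, and all 4 ranked GCT44, NT2D1 and TCam-2 alike. Since they are listed with overlapping genes, they are not independent readings.

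GCT44 was 6.88-fold, 7.26-fold, 7.23-fold and 5.76-fold over NT2D1 on the 4 GAGE sets, and NT2D1 was 10.0-fold, 11.2-fold, 10.3-fold and 16.8-fold over TCam-2. No MAGEA or CTAG probe set was above the floor in NT2D1. The probe set of GAGE1 alone was below the floor in all lines, at 12.0, 7.08, 23.4 and 5.71.

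PAGE1 and PAGE5 were above the floor in GCT44 alone. PAGE1 measured 70.4 in TCam-2 and 18.7 in NT2D1, 38.5 in GCT27 and 414 in GCT44, at least 5.42-fold higher there. PAGE5 measured 18.6, 6.48, 5.56 and 388 in the same order, at least 5.08-fold higher in GCT44. These are the narrowest of the 6 margins in GCT44, and with a floor of 252 units, the 70th percentile of all values, both lost the call with margins of 0.72 and 0.62 on the log2 scale. PAGE4, a disordered protein of prostate and placenta, had another order, with 356 in TCam-2 and 8.75 in NT2D1, 176 in GCT27 and 5.31 in GCT44. TCam-2 was 2.03-fold over GCT27 and at least 4.66-fold over the lowest line, and the gene was not called.

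XAGE2 was the only member called in TCam-2. It measured 2832 in TCam-2 and 16.0 in NT2D1, 12.8 in GCT27 and 145 in GCT44, which made TCam-2 19.5-fold higher than GCT44 and at least 37.1-fold higher than the lowest line. XAGE3 measured 108, 52.8, 6.71 and 24.8 and was above the floor in TCam-2 alone, by at least 1.42-fold. The pseudogene XAGE-4 measured 294, 149, 262 and 206, a range of 1.98-fold, and was above the floor in all lines.

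XAGE1A and XAGE1B encode a tumour antigen known from lung adenocarcinoma and share 1 probe set. It measured 13924 in TCam-2 and 6.31 in NT2D1, 95.7 in GCT27 and 25389 in GCT44. GCT44 was 1.82-fold over TCam-2, and TCam-2 was 146-fold over GCT27. The set was not called in either line because both were high.

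Of 8 SSX genes, SSX1, SSX2B and SSX3 have a probe set of their own. SSX1 measured 57.5 in TCam-2 and 44.7 in NT2D1, 64.6 in GCT27 and 272 in GCT44, at least 3.57-fold higher in GCT44 and short of the call, while its other probe set was below the floor. SSX3 measured 102, 73.0, 83.2 and 142, with GCT44 1.39-fold over TCam-2. A further SSX3 set measured 54.7, 4.31, 64.4 and 256, and the last was below the floor. SSX2B was below the floor on its own set.

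The 3 sets listed with SSX2 and SSX2B measured 11.2, 10.8 and 30.4 in TCam-2, 6.17, 18.1 and 14.2 in NT2D1, 20.9, 119 and 56.3 in GCT27, and 170, 507 and 289 in GCT44. GCT44 was highest on all 3, by at least 2.22-fold, by 4.25-fold, which was called, and by at least 3.79-fold. The call was lost with the floor of 252 units (margin 1.01 on the log2 scale) and with the spiked-in scaling (1.54). Of 3 sets listed with SSX4 and SSX4B, 1 was below the floor, and the others reached 182 and 152 in GCT44, which was 1.37-fold and 1.53-fold over GCT27, the next line. With the spiked-in scaling these margins were -0.10 and 0.06 on the log2 scale, so the first put GCT27 above GCT44. The set listed with SSX2, SSX2B and SSX3 had 98.0 in GCT44 and 94.3 in GCT27, and its margin turned from 0.06 to -0.50 under that scaling. The SSX levels were thus above the floor on 6 of 8 shared sets in GCT44 and on 4 in GCT27. No shared SSX set was above it in TCam-2 or NT2D1.

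In all, 10 of the 26 probe sets listed with several genes were called higher in GCT44, namely the 3 CTAG1 sets, the 4 GAGE sets, and 1 set each of MAGEA3 with MAGEA6, MAGEA5P and SSX2. Of the 26, 22 reached the floor, and the 10 are 45.5% of these. The background was 34 of 1309 such sets that reached the floor, or 2.60%, out of 1801 in all, and the 34 include these 10. The 3 CTAG1 sets reached the floor in GCT44 alone, so they could be counted only as higher. None of the 26 was called higher in TCam-2 (background 1.07%), NT2D1 (0.229%) or GCT27 (0.535%). None was called lower in TCam-2 (0.993%), NT2D1 (0.153%), GCT27 (0.229%) or GCT44 (0.917%). These sets share members and sequence, so 10 sets are not 10 separate observations. The IDs of all 10 called sets end in _x_at, a type that may bind similar transcripts, and no shared set with another ending was called. Among the 7 called members with their own probe set, MAGEA1, MAGEA6 and MAGEA12 rest on a set of that type too. Without sets of that kind these 3 genes had no value, and 3 members remained called in GCT44.

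**Figure D2:**
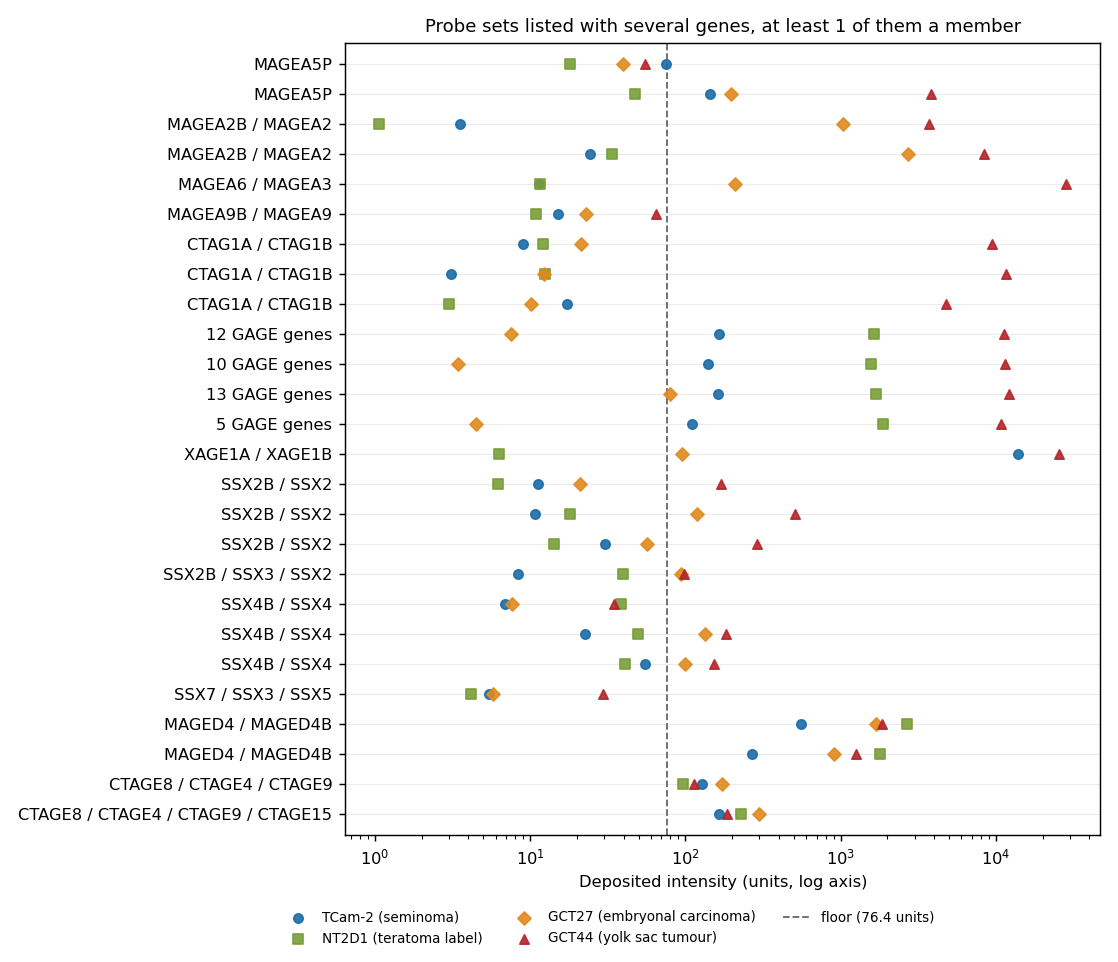
Deposited intensity of the 26 probe sets listed with several genes, 1 point per line on a log axis, with the listed genes at the left and the floor of 76.4 units as a dashed line. GCT44 (triangles) lies highest on all CTAG1 and GAGE sets and on the SSX2 sets (except the one listed with SSX3, where the spiked-in scaling put GCT27 higher), the 4 GAGE sets repeat 1 order of lines, and the XAGE1 set is high in TCam-2 and GCT44.

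Among the widely expressed MAGE genes, MAGED1, MAGED2, MAGEE1, MAGEF1 and MAGEH1 were above the floor in all 4 lines, and none was called. MAGED1, an adaptor of the neurotrophin receptor NGFR, measured 4514 in TCam-2 and 14035 in NT2D1, 4250 in GCT27 and 12111 in GCT44, a range of 3.3-fold. NT2D1 and GCT44 formed a high pair that differed by 1.16-fold and lay 2.68-fold over the rest. MAGED2, which is needed for salt reabsorption in the fetal kidney, measured 1537, 1873, 2185 and 3721, a range of 2.42-fold with the same order on its other set (915, 1191, 1790 and 2382).

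MAGEH1 had the widest range of this group with 712 in TCam-2 and 559 in NT2D1, 996 in GCT27 and 3328 in GCT44. GCT44 was 3.34-fold over GCT27, below the 4-fold rule. MAGEE1, a dystrobrevin-associated protein, measured 461, 778, 917 and 1154, but its other probe set measured 253, 296, 350 and 209 and put GCT27 highest, so the order of the lines depends on the set. MAGEF1, a regulator of iron-sulphur cluster assembly, varied least, with 1749, 2491, 1823 and 1856. MAGEE2 was below the floor.

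MAGED4 and MAGED4B, adjacent copies expressed in brain, share 2 probe sets that are also listed with small nucleolar RNAs of the locus. The first measured 555 in TCam-2 and 2687 in NT2D1, 1692 in GCT27 and 1857 in GCT44, and the other 268, 1785, 912 and 1250. TCam-2 was lowest on both, 3.05-fold and 3.41-fold under the next line, which is short of the call.

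Of the members that enter by name alone, SSX2IP measured 653, 1155, 658 and 2286 in TCam-2, NT2D1, GCT27 and GCT44, with GCT44 1.98-fold over NT2D1. All 6 of its probe sets put GCT44 highest, by 1.74-fold to 2.12-fold. CTAGE1 and CTAGE11P were below the floor, and the 2 sets shared by the other CTAGE genes were above it in every line, between 96.1 and 172 and between 165 and 299.

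MAGEA genes lie close together on the X chromosome, so the genes between them were read in RefSeq order. From MAGEA3 to MAGEA6 the order is MAGEA3, CSAG2, MAGEA2B, CSAG1, MAGEA12, MAGEA2, CSAG3 and MAGEA6. CSAG2 and CSAG3, a separate family of cancer-testis genes, share a probe set that measured 2.77 in TCam-2 and 3.63 in NT2D1, 372 in GCT27 and 3563 in GCT44. GCT44 was 9.57-fold over GCT27, and the other lines were below the floor, as for MAGEA6 and MAGEA12. CSAG2 lies between MAGEA3 and MAGEA2B, and CSAG3 between MAGEA2 and MAGEA6. On the MAGEA2 sets the same lines were above the floor, but GCT44 was only 3.12-fold and 3.6-fold over GCT27.

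The genes beside this stretch were above the floor in other lines too. GABRQ, a GABA receptor subunit before MAGEA3, measured 1004, 186, 723 and 120 in TCam-2, NT2D1, GCT27 and GCT44, and GABRA3 was above the floor in TCam-2 alone at 136. CETN2, a centriole protein next to MAGEA6, measured 2710, 2458, 3787 and 4850, and NSDHL, an enzyme of cholesterol synthesis, 1432, 1053, 2189 and 3047. GCT44 was highest for both, but by only 1.28-fold and 1.39-fold. ZNF185 was below the floor in GCT44 at 67.9, against 310 to 335 elsewhere. MAGEA1, further along, was again high in GCT44 alone.

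**Figure D3:**
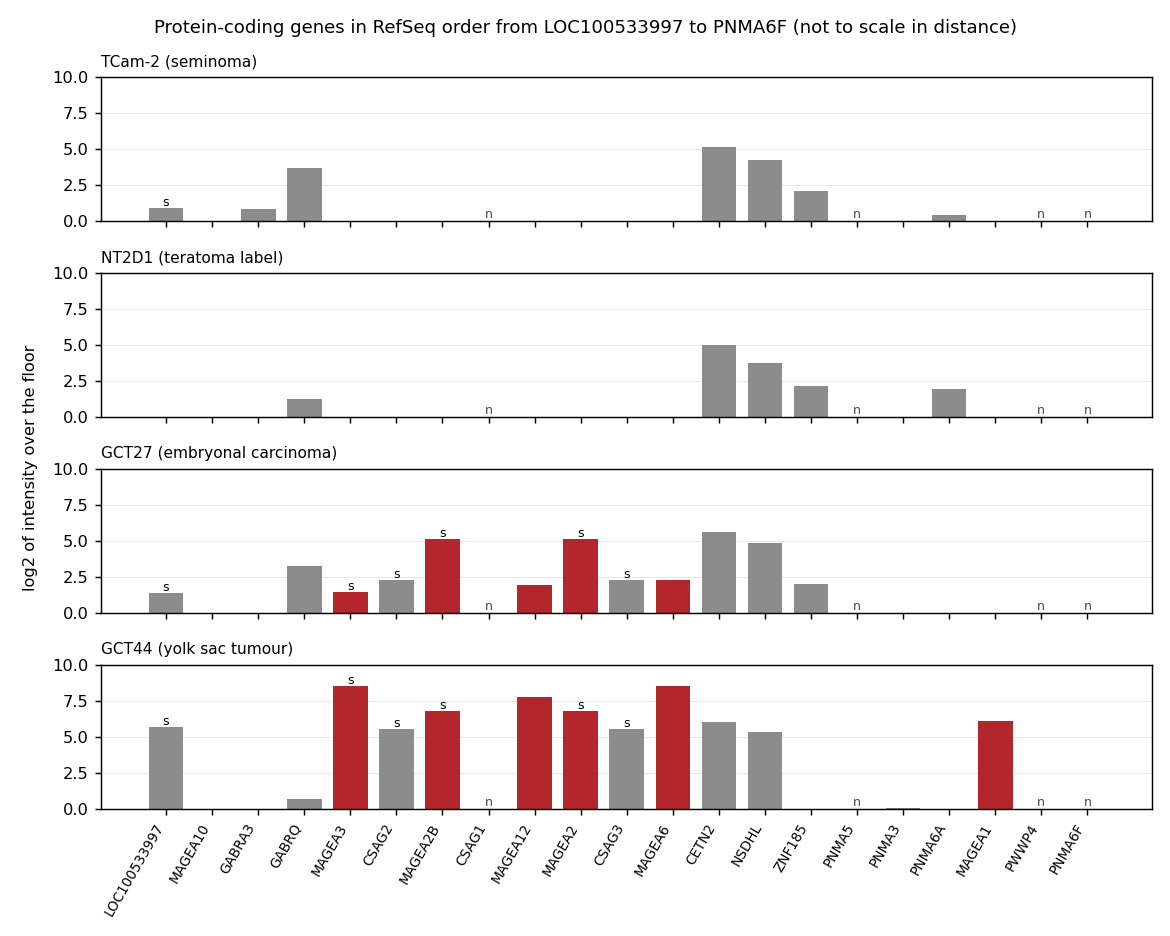
log2 of intensity over the floor of 76.4 units for protein-coding genes of the X chromosome in RefSeq order, 1 panel per line; members are red and other genes grey, s marks a probe set shared by several genes and n a gene without a probe set. The red bars from MAGEA3 to MAGEA6 and at MAGEA1 are tall in GCT44, those from MAGEA3 to MAGEA6 are lower in GCT27, and none stands above the floor in TCam-2 or NT2D1, while CETN2 and NSDHL are above it in every line.

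Promoter windows were matched by gene for 57 of the 69 members, with 74 start sites. MAGEA1, CTAG1A, CTAG1B and CTAG2 are among the 12 without one. The median number of CpG pairs in the 250 bases was 11 for 16 MAGEA windows, 8 for 12 GAGE, 9.5 for 8 XAGE, 6.5 for 4 PAGE, 7 for 8 SSX, 5 for 7 MAGEB, 6 for 3 MAGEC and 16 for 7 MAGED windows. Over all 35116 windows it was 11, with lower and upper quartiles of 3 and 23. The ratio of observed to expected CpG pairs was 0.52 in MAGEA, 0.34 in GAGE and PAGE, 0.29 in MAGEB and 0.67 in MAGED, against 0.56 over all windows. The MAGED windows were uneven: MAGED4 and MAGED4B held 16 to 22 CpG pairs, the start sites of MAGED1 6 and 17, and those of MAGED2 6 and 8. The median was 9.5 for 2 MAGEE windows, and the MAGEF1 window held 12. Windows of near-identical copies are not independent.

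Short motifs that hold a CpG were counted on both strands, and they were chosen after the sequences were seen. The core of ETS factor sites, CCGGAA or CCGGAT, was in 16 of 16 MAGEA windows, 2 of 3 MAGEC and 3 of 7 MAGEB windows and the MAGEF1 window, and in no GAGE, PAGE, XAGE, SSX or MAGED window. It was in 18.7% of all windows. MAGEA3 and MAGEA6 held CCGGAA, which is in the MAGEA6 window above, and the other 14 MAGEA windows held CCGGAT, as MAGEA12 does. MAGEA4, MAGEA8 and MAGEA11, which were below the floor in GCT44, held CCGGAT too.

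The motif TGCGCATG was in 12 of 12 GAGE windows, 6 of 8 XAGE windows, 2 of 4 PAGE windows (PAGE1 and PAGE5) and 4 of 7 MAGED windows, and in no MAGEA, MAGEB, MAGEC or SSX window. It was in 1.81% of all windows. It does not contain the ETS core. PAGE1 and PAGE5, which were above the floor in GCT44, held it and PAGE4 did not. XAGE1A, XAGE1B and XAGE3 held it and XAGE2 did not, but XAGE3 was below the floor in GCT44 and XAGE2 above it. GAGE1 held it, and its own probe set was below the floor in all lines. MAGED1 held it with a high level in all lines. XAGE3 and MAGED1 each had a further window without it. A match is a run of letters and does not show that a factor binds there.

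**Figure D4:**
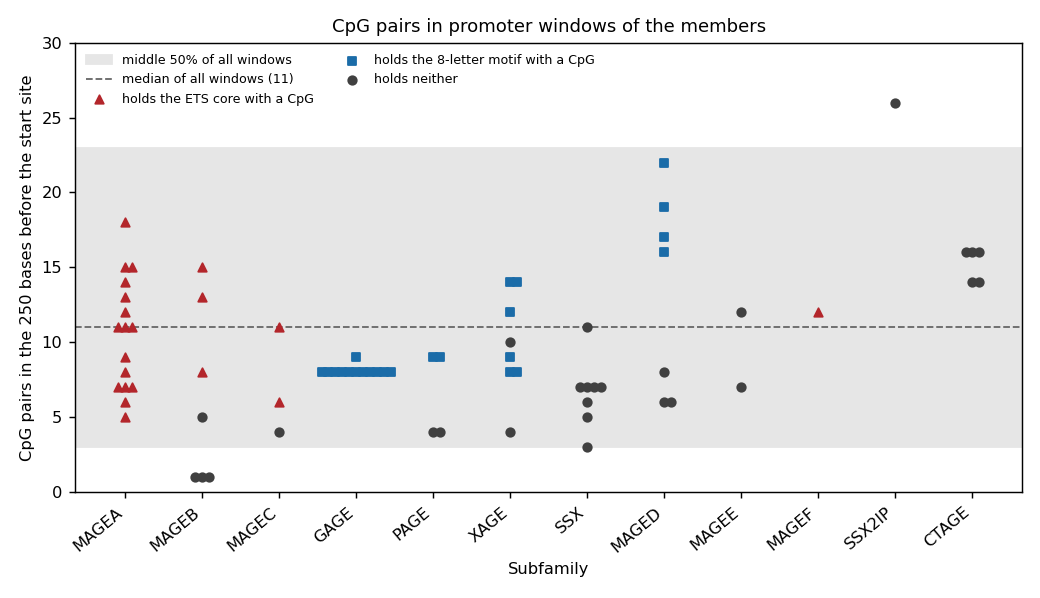
CpG pairs in the 250 bases before each RefSeq start site, 1 point per window by subfamily; red triangles hold the ETS core with a CpG, blue squares the 8-letter motif and dark circles neither, the grey band spans 3 to 23 pairs (the quartiles of all windows) and the dashed line is their median of 11. Every MAGEA window is a red triangle and every GAGE window a blue square with 8 or 9 pairs, while most MAGEB windows lie at 5 or fewer.

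Genes whose products add or remove DNA methylation or act on chromatin were read as a list of 33, of which 32 were compared. The list thus mixes genes of opposite action. One was called higher in TCam-2 (background 1.49%) and one lower in GCT27 (0.322%), and none in GCT44. DNMT3L, the germ line cofactor of DNA methylation, measured 2083 in TCam-2 and 189 in GCT27, an 11.0-fold difference, and was below the floor in NT2D1 and GCT44. TET2, which oxidises methylated cytosine, measured 1048, 340, 72.4 and 574 and was called lower in GCT27. That call was lost when its probe sets were combined by their median (margin 0 on the log2 scale) and with the floor of 252 units (0.43).

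DNMT1, the maintenance methyltransferase, measured 2171, 5532, 4335 and 3283 in the same order, and the de novo enzyme DNMT3A 3339, 3470, 3991 and 3519. DNMT3B measured 2841, 11360, 23760 and 2377 and UHRF1, which guides DNMT1, 1825, 7482, 2969 and 10173. None of these 4 met the rule. In GCT44 DNMT1 and DNMT3A lay within the range of the other lines, DNMT3B was lowest and UHRF1 highest. Their part in the levels of the MAGEA, CTAG and GAGE genes was not tested. The medians over the 32 genes were -0.08, 0.14, -0.09 and -0.05 on the log2 scale in TCam-2, NT2D1, GCT27 and GCT44, beside -0.06, -0.03, -0.02 and -0.04 for all genes compared.

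Of 14 ETS and SP factors, 1 was called: ETV1 was lower in TCam-2 at 677 against 3018 or more elsewhere (4.46-fold, background 0.744%). The call was lost when its probe sets were combined by their median (margin 1.36 on the log2 scale) and with the spiked-in scaling (1.84). ETS1 measured 328, 1860, 903 and 1154 in TCam-2, NT2D1, GCT27 and GCT44, and ETS2 146, 1445, 304 and 380. GABPA measured 2041, 3901, 1644 and 3047. None of the 14 was called in GCT44.

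Of 15 compared ubiquitin ligase partners of MAGE proteins and related proteins, 3 were called, each in another line. LNX1, a ligase listed as a MAGE partner, was lower in GCT44 at 333 against 1755 to 2156 elsewhere (5.28-fold, background 1.69%). With the median over its probe sets its margin was 0.88 on the log2 scale and the call was lost. BEX1 was lower in TCam-2 at 74.9 against 3504 or more (at least 45.9-fold, background 0.744%), and DLX5, a homeobox factor bound by MAGED1, was higher in NT2D1 at 323 (at least 4.22-fold, background 0.523%). The DLX5 call was lost with the floor of 252 units (margin 0.36). TRIM28, the ligase bound by MAGEA3 and MAGEA6, measured 1895 in TCam-2 and 749 in NT2D1, 1177 in GCT27 and 1256 in GCT44. NGFR, a MAGED1 partner, reached the floor in GCT27 alone, at 77.2. None of 9 SSX and synovial sarcoma partners was called, and SS18, the fusion partner of SSX genes, measured 3327, 1144, 2131 and 4631.

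Among 4 MAGE family genes outside the symbol rule, none was called. NDN, an imprinted gene, measured 4518, 4541, 6467 and 6027, and NSMCE3, a subunit of the SMC5/SMC6 complex, 607, 648, 669 and 1352. MAGEL2, also imprinted, measured 14.1 in TCam-2 and 311 in NT2D1, 624 in GCT27 and 25.5 in GCT44. TRO measured 157, 584, 508 and 286.

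Of 18 compared cancer-testis genes of other families, 3 were called higher in TCam-2 (background 1.49%), 1 in GCT27 (0.603%) and 1 in GCT44 (1.70%). In TCam-2 these were PRAME, a nuclear antigen, with 9713 against at most 79.5 elsewhere, the helicase DDX43 with 1175 (at least 15.4-fold higher) and LUZP4, an RNA export factor, with 411 (at least 5.37-fold). The LUZP4 call was lost with the floor of 252 units (margin 0.70 on the log2 scale). IL13RA2, a decoy receptor of interleukin 13, was higher in GCT27 at 1390 (at least 18.2-fold). CEP55, a protein of cell division, was higher in GCT44 at 17135 against 3806 in GCT27, but not with the spiked-in scaling (margin 1.62). CTCFL, the germ line paralogue of CTCF, measured 175, 49.1, 199 and 42.0, so it was below the floor in NT2D1 and GCT44.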

How the data were processed

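Total RNA of 4 cell lines was labelled with biotin and hybridized to 1 array each. The intensity values were deposited by the authors on a linear scale and had the same trimmed mean of 500.1 on every array (2% off each end). RMA is named without a version in the submitters' processing notes, although RMA usually gives log2 values; how probes were summarised is not given in the sources used here. Of 54675 probe sets, 41097 are listed with 1 gene, 1801 with several and 11777 are not listed. Log2 was taken here, and of the probe sets listed with 1 gene alone, the one with the highest mean log2 value stands for that gene. The floor was the median of all values, 76.4. Calls were made by the size rule with no p-value, since there is 1 array per line. The procedure was tested on simulated data. Promoters and gene order come from RefSeq GRCh38.p14; the array files name no build.

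The members, the gene lists and the rule were chosen with earlier results of these data known. The text names every called member, every member above the floor in 4 lines and up to 10 others by range; of each list, the called genes and up to 4 others in list order, while NGFR, CTCFL and the subtype markers shown were chosen after their values were seen. Probe set, filter, floor, normalization and threshold were varied, and the linear mean and the spiked-in scaling were added after the values were seen. Python 3.11.15, numpy 2.4.6, pandas 2.3.3 and matplotlib 3.10.9 were used.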

Additional observations from a re-analysis of the deposited data

How the results depend on the processing

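The 6 members called in GCT44 were the same genes with a gene's probe sets combined by their median, no filter, quantile normalization, median centring, the linear mean and the spiked-in scaling. Without probe sets ending in _s_at, _x_at or _a_at, 10 members were above the floor in GCT44 (16 before) and 3 were higher there (6 before), because MAGEA1, MAGEA6, MAGEA12, SSX1, SSX3 and SSX2IP, all above the floor in GCT44, then had no probe set. With a floor at 252 units, the 70th percentile, PAGE1 and PAGE5 had margins of 0.72 and 0.62 on the log2 scale and lost their call. The called SSX2 set lost it there (1.01) and with the spiked-in scaling (1.54). At a threshold of 1, 2 members were higher in TCam-2, the second being PAGE4 (1.02), and MAGEH1 and SSX1 were added in GCT44. With the linear mean, CTAG2 was at least 146-fold higher in GCT44.

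For all genes, the floor of 252 gave 143, 29, 57 and 150 higher and 60, 22, 17 and 98 lower in TCam-2, NT2D1, GCT27 and GCT44, against 222, 78, 90 and 253 higher and 111, 36, 48 and 252 lower. A threshold of 1 gave 690, 420, 471 and 726 higher and 467, 295, 278 and 664 lower. The median over probe sets gave 70, 26 and 135 lower in TCam-2, GCT27 and GCT44, and the spiked-in scaling 148 higher in GCT27. No called value changed sign. Of values that were not called, the margins of an SSX4 set and of the set listed with SSX2, SSX2B and SSX3 in GCT44 turned to -0.10 and -0.50 with the spiked-in scaling, and that of MAGEE1 below the other lines in TCam-2 to -0.28 without sets ending in _s_at, _x_at or _a_at. No paired analysis was possible because each line has 1 array. No replicate could be left out for the same reason, and signal near the floor limits SSX, PAGE and MAGEC2.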

Other observations

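Some cancer-testis genes of other families lie only on shared probe sets. The set listed with 12 CT47A genes, a tandem family on the X chromosome, measured 57.5 in TCam-2 and 7.97 in NT2D1, 36.6 in GCT27 and 6376 in GCT44, at least 83.4-fold higher in GCT44. The CT45A family, also X-linked, differed: 1 of its 2 sets, each listed with 9 genes, reached 125 in GCT27 alone and the other was below the floor. The 3 SPANX sets, of sperm proteins, reached 176, 146 and 101 in GCT27 and were below the floor in GCT44. These sets were picked after their values were seen.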
